A study of Mus musculus with 29 samples.

Results

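Fatty acid elongation and desaturation were followed through 10 genes across TRAP-RNAseq libraries of mouse brain: the elongases Elovl1, Elovl2, Elovl4, Elovl5, Elovl6 and Elovl7, the desaturases Fads1 and Fads2, and the stearoyl-CoA desaturases Scd1 and Scd2. They were chosen by gene symbol, and the symbols matched 10 of the 36172 gene rows of the expression table. In TRAP, ribosomes that carry an EGFP-tagged protein are captured by a GFP antibody from homogenised brain, together with the RNA they hold. The NuTRAP reporter makes that protein only where Cre has acted, and both lines of mice were given tamoxifen at about 3 months of age to switch Cre on. The Aldh1l1-Cre/Ert2+; NuTRAP+ mice (Aldh1l1-NuTRAP) drive Cre from an astrocyte gene and gave a positive, ribosome-bound fraction (A_Pos, n = 3) and the negative, unbound fraction of the same mice (A_Neg, n = 3). The Cx3cr1-Cre/Ert2+; NuTRAP+ mice (Cx3cr1-NuTRAP) drive Cre from a gene of microglia that other myeloid cells also use, and gave a positive fraction (C_Pos, n = 6), a negative fraction (C_Neg, n = 6), the cleared homogenate before the pulldown (C_Input, n = 6) and conventionally isolated whole tissue RNA (C_Slice, n = 5). All mice carried Cre and the reporter, both sexes were used in the study without the labels giving the sex of a mouse, and input and whole tissue of Aldh1l1-NuTRAP mice were not analysed here. The mice are named by their animal numbers: 290, 293 and 294 in the first line, and 155, 192, 194, 209, 210 and 277 in the second, where mouse 155 has no whole tissue library.

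A fatty acid is lengthened in the endoplasmic reticulum in a cycle whose first and rate-limiting step is made by an ELOVL enzyme, and a double bond is set into the chain by a desaturase that takes electrons from cytochrome b5. Fads2 and Fads1 make the successive desaturations by which dietary linoleic and alpha-linolenic acid become polyunsaturated fatty acids, with Elovl5 and Elovl2 lengthening the chains between and after them on the way to arachidonic and docosahexaenoic acid. Scd1 and Scd2 turn stearic and palmitic acid into monounsaturated oleic and palmitoleic acid, Elovl6 turns palmitic into stearic acid, Elovl1 and Elovl7 lengthen saturated and monounsaturated chains for sphingolipids and other membrane lipids, and Elovl4 makes the longest chains, which are known from retina, skin and brain. In the brain, astrocytes are known to make polyunsaturated fatty acids that neurons take up, and oligodendrocytes use long saturated and monounsaturated chains for myelin.

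On mm10, as the expression table gives them, Elovl1 (Entrez 54325) lies on the plus strand at chr4:118428093-118432916, Elovl2 (54326) on the minus strand at chr13:41182382-41220403 and Elovl4 (83603) on the minus strand at chr9:83778692-83806305. Elovl5 (68801) lies on the plus strand at chr9:77917365-77984519, Elovl6 (170439) on the plus strand at chr3:129532386-129638493 and Elovl7 (74559) on the plus strand at chr13:108214404-108287107. The desaturases are all on chromosome 19: Fads1 (76267, plus strand) at chr19:10182888-10196872, Fads2 (56473, minus strand) at chr19:10064164-10101503, Scd1 (20249, minus strand) at chr19:44394450-44407709 and Scd2 (20250, plus strand) at chr19:44293676-44306862. All 10 are protein-coding, and each value is for the whole gene. In the GENCODE M21 annotation of the same assembly, Elovl1 overlaps Cdc20 on the opposite strand by 53 bases, and the libraries were strand-specific. Strand does not separate Elovl6 from the gene model Gm43072 (1671 bases), Fads1 from Mir6993 (65 bases) or Scd2 from Mir5114 (61 bases), which overlap them on the same strand. Runs of 42 bases that also occur in a transcript of another gene made up 5.85% of those of Scd1 (most of them shared with Scd3), 5.04% of those of Scd2 (most with Scd1), 4.81% of those of Elovl6 (most with the gene model Gm11295), 0.449% of those of Elovl7 and 0.395% of those of Fads2. The other 5 members shared none. How reads in such runs were assigned is not given in the sources used here, so the values of Scd1 and Scd2 may hold a small part of each other's reads.

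RefSeq promoter entries (GRCm38.p6) were found for 7 of the 10 members, and not for Fads1, Scd1 and Scd2. The 250 bases before the start site are shown for 2 elongases that were higher in astrocyte-bound RNA, Elovl2 at chr13:41220404-41220653 (minus strand) and Elovl5 at chr9:77917115-77917364 (plus strand), and for 2 that were lower there, Elovl4 at chr9:83806306-83806555 (minus strand) and Elovl7 at chr13:108214154-108214403 (plus strand). Capitals mark the GC box GGGCGG, the CCAAT box CCAAT and the E-box CACGTG, searched on both strands and printed as they read on the gene's strand.
Elovl2: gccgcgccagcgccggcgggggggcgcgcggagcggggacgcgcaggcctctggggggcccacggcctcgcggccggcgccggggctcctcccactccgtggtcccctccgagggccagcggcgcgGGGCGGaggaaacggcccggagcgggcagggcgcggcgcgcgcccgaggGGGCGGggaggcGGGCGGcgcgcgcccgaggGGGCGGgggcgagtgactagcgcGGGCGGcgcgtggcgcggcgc
Elovl5: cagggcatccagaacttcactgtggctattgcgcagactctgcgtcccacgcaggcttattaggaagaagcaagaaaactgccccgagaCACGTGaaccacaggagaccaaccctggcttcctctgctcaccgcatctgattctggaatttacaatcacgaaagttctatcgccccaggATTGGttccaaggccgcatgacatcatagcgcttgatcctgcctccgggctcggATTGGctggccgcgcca
Elovl4: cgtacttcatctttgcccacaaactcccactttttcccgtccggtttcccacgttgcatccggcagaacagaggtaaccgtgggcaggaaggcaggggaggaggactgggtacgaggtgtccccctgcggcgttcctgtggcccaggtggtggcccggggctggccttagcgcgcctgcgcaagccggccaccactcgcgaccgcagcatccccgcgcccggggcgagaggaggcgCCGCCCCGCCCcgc
Elovl7: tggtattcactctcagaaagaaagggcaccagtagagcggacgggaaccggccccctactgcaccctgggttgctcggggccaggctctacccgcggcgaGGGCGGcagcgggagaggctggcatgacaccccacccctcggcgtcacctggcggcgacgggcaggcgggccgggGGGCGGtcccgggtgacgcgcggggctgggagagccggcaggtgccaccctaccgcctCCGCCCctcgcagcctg
The window of Elovl2 had a G or C at 87.2% of its bases, 49 CG dinucleotides and 5 GC boxes, the first of them starting 124 bases before the start site. RefSeq has another start for Elovl2, whose window (79.6% G or C) held none of these motifs. The window of Elovl5 had 55.6% G or C, 14 CG dinucleotides, CCAAT boxes starting 71 and 17 bases before the start and an E-box at 161 bases, and no GC box. Elovl4 (69.6% G or C, 25 CG dinucleotides) held 2 overlapping GC boxes, at 14 and 9 bases, and Elovl7 (73.6%, 25) held 3, at 150, 75 and 17 bases. Thus GC boxes were found in windows of genes that were higher and of genes that were lower. Of all 32851 windows of this length, from 27025 genes, 32.7% held a GC box, 33.8% a CCAAT box and 6.02% an E-box. The sterol regulatory element TCACNCCAC (1.05% of all windows) and direct repeats of AGGTCA with 1 or 4 bases between them (0.0335% and 0.0152%) had no match in the windows of these 7 members.

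Levels are given as CPM, the reads of a gene scaled to the same total in every library. Libraries held from 4260949 reads, in C_Slice of mouse 210, to 26857866, and the smallest of A_Pos (11910851) and A_Neg (8782235) were both from mouse 290. Summed over 8 markers, astrocyte RNA was at 15753 to 23342 CPM in A_Pos against 3009 to 3940 in A_Neg, and microglial RNA at 2907 to 6893 CPM in C_Pos against 356 to 394 in C_Input, so each positive fraction carried the markers of its labelled cell type. A_Pos held less RNA of neuron markers (1616 to 2165 against 7138 to 8340 CPM) and oligodendrocyte markers (1159 to 1351 against 5964 to 7242) than A_Neg, and more of choroid plexus markers (2817 to 3337 against 467 to 615). The ependymal marker sum was also higher (38.3 to 49.2 against 16.3 to 29.2), by Foxj1 (mean 37.8 against 14.5). The ependymal markers Ccdc153 (4.48 against 6.13) and Tmem212 (1.11 against 1.99) had lower means. The part of these markers in the A_Pos values was not tested. C_Pos kept a large part of the neuron (5455 to 8415 against 7543 to 7897 CPM in C_Input) and astrocyte markers (2728 to 4280 against 4395 to 4757). In bulk libraries such as these, fewer cells of a type and less RNA per cell cannot be told apart.

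**Figure D1:**
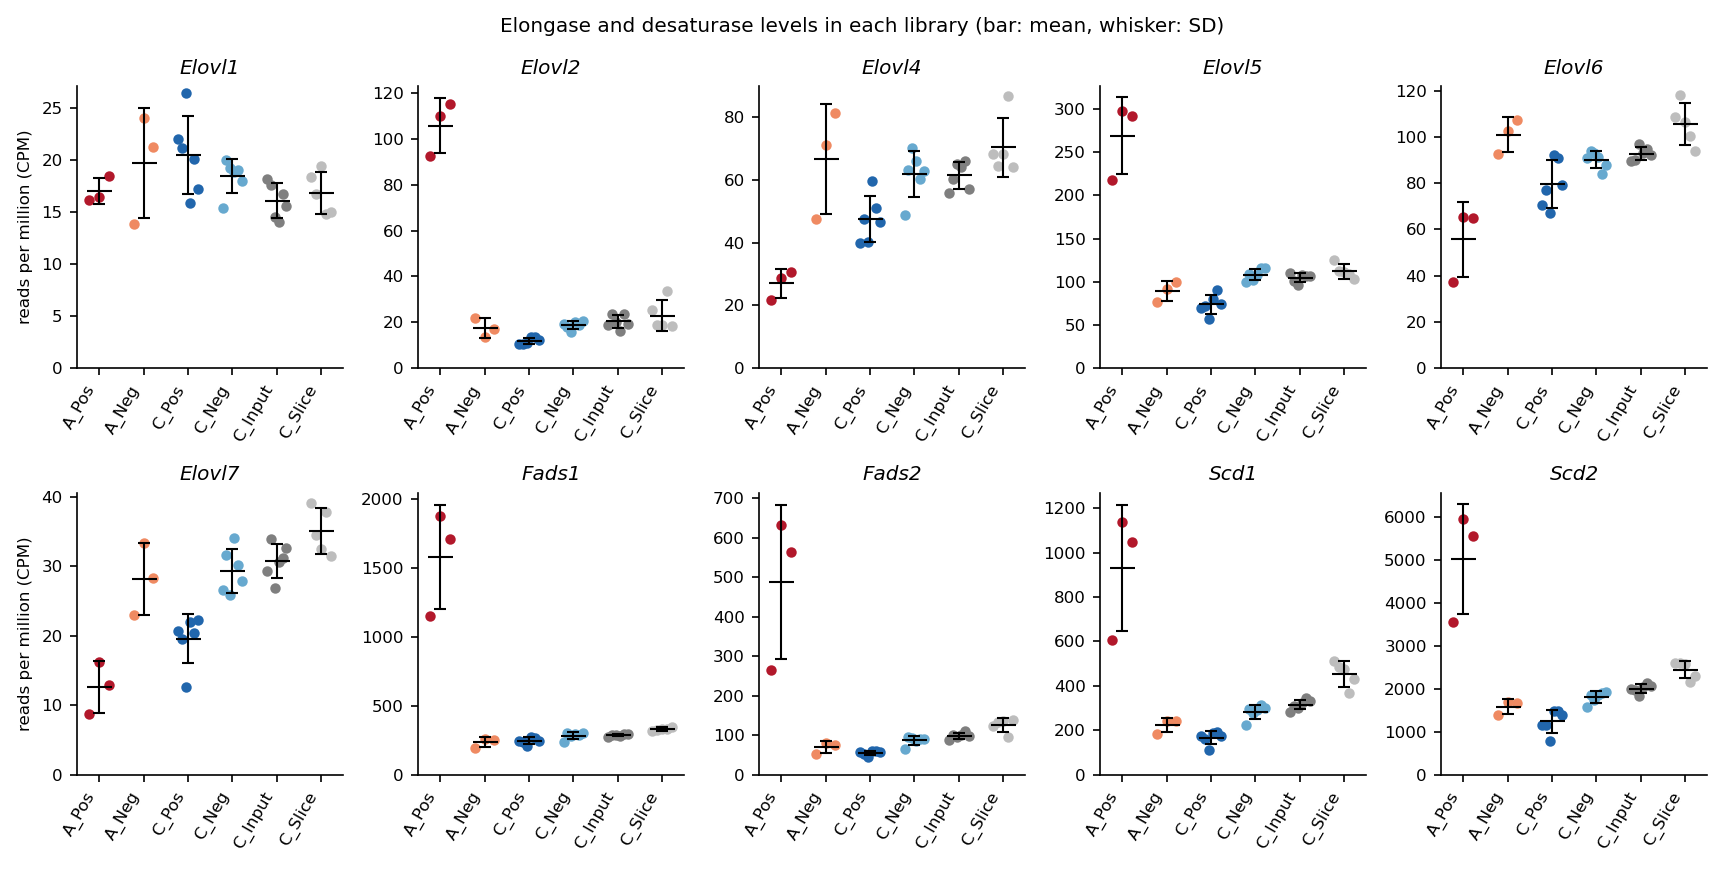
Each panel plots 1 gene, with CPM on a linear axis from 0 and the 6 groups along the bottom. Points are libraries, black bars the group mean and whiskers the SD, and Elovl2, Elovl5, Fads1, Fads2, Scd1 and Scd2 have their 3 A_Pos points above every other library.

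Per kilobase of merged exons, which makes levels comparable between genes, Scd2 was the most abundant of the 10 in all 6 groups. In A_Pos the mean level was 919 ± 234 CPM per kb for Scd2, 328 ± 78.6 for Fads1, 190 ± 58.2 for Scd1, 148 ± 59.2 for Fads2 and 76.4 ± 12.7 for Elovl5 (SD, n = 3). Scd1 and Fads2, which are neighbours in that order, differed by less than their SDs. Elovl2 followed at 26.7 ± 3.01 CPM per kb, and Elovl4 (8.91 ± 1.56), Elovl6 (8.67 ± 2.52), Elovl1 (6.26 ± 0.462) and Elovl7 (3.14 ± 0.941) were lowest. Elovl4 and Elovl6 differed by less than their SDs, and with the length of the longest coding transcript, an alternative chosen after seeing the data, Elovl1 (9.42), Elovl6 (9.37) and Elovl4 (8.98 CPM per kb) stood in another order. In C_Pos the order began with Scd2 (226 ± 48.4 CPM per kb), Fads1 (51.1 ± 4.79) and Scd1 (34.0 ± 6.08, SD, n = 6). Elovl2 had the lowest mean of the 10 in the other 5 groups, at 3.00 ± 0.355 CPM per kb in C_Pos and 5.13 ± 0.745 in C_Input, but was 6th in A_Pos. In C_Slice, Elovl2 (5.79 ± 1.66) and Elovl1 (6.19 ± 0.751) differed by less than their SDs.

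Astrocyte-bound RNA was compared with the unbound RNA of the same brains. The desaturation and elongation route to polyunsaturated fatty acids and both stearoyl-CoA desaturases were higher in A_Pos by 3.84-fold to 8.88-fold, while Elovl4 and Elovl7 were lower and Elovl1 and Elovl6 did not pass the test. Of the members, 6 (60%) were called higher and 2 (20%) lower, by edgeR's quasi-likelihood test at a Benjamini-Hochberg adjusted p under 0.05. Of all 13319 genes tested, 26.8% were called higher and 24.8% lower. By the CPM of single libraries, 6 members lay above A_Neg and 3 below it without overlap, as did 21.3% and 41.7% of all genes tested. All 10 members passed the filter on low values in this and in every other comparison. The 6 libraries are from 3 mice, and the study's sorted-cell marker lists hold Elovl2 for astrocytes and Elovl1, Elovl6 and Elovl7 for oligodendrocytes. The paper also measured Elovl2 by qPCR as an astrocyte marker, and reported it enriched in the positive fraction of Aldh1l1-NuTRAP mice over input and negative fractions.

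Fads2, the first desaturase of the polyunsaturated route, was at 266, 632 and 565 CPM in A_Pos of mice 290, 293 and 294 and at 52.4, 80.7 and 75.6 CPM in A_Neg of the same mice. The groups did not overlap, and the A_Pos library of mouse 290 held less than that of either other mouse. The fitted difference was 8.88-fold (log2 3.15, SE 0.35, adjusted p = 0.00035). Fads1, the next desaturase, was at 1152, 1874 and 1708 CPM in A_Pos and at 191, 258 and 251 CPM in A_Neg, again without overlap. It differed by 8.58-fold (log2 3.10, SE 0.22, adjusted p = 7.79e-05).

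Elovl2, which lengthens the longer polyunsaturated chains, was at 92.5, 110 and 115 CPM in A_Pos and at 22.0, 13.5 and 17.0 CPM in A_Neg. The groups did not overlap, and the ratio within a mouse ran from 4.20 in mouse 290 to 8.15 in mouse 293. The fitted difference was 7.70-fold (log2 2.95, SE 0.23, adjusted p = 9.34e-05). Elovl5, which acts on shorter polyunsaturated chains, was at 218, 298 and 292 CPM in A_Pos and at 76.7, 91.0 and 99.5 CPM in A_Neg. It was higher by 3.84-fold (log2 1.94, SE 0.18, adjusted p = 0.000178), in 3 of 3 mice and with within-mouse ratios close together, from 2.83 to 3.27.

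Scd1 was at 607, 1140 and 1047 CPM in A_Pos and at 185, 241 and 243 CPM in A_Neg of mice 290, 293 and 294. The groups stood apart, by 5.30-fold in the fit (log2 2.41, SE 0.25, adjusted p = 0.000297). Scd2, the stearoyl-CoA desaturase known as the main form in mouse brain, was at 3566, 5947 and 5552 CPM in A_Pos and at 1394, 1700 and 1656 CPM in A_Neg. It was higher by 4.02-fold (log2 2.01, SE 0.21, adjusted p = 0.000266), in 3 of 3 mice.

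Elovl4 was at 21.6, 28.6 and 30.6 CPM in A_Pos and at 47.4, 71.1 and 81.4 CPM in A_Neg. It was lower in 3 of 3 mice, at 0.515 times the A_Neg level in the fit (log2 -0.96, SE 0.23, adjusted p = 0.0102). Elovl7 was at 8.70, 16.2 and 12.8 CPM in A_Pos and at 23.0, 33.3 and 28.4 CPM in A_Neg. It was lower in 3 of 3 mice as well, at 0.57 times A_Neg (log2 -0.82, SE 0.25, adjusted p = 0.0288). Without mouse 293 the adjusted p was 0.0885 for Elovl4 and 0.076 for Elovl7, and without mouse 294 it was 0.084 and 0.152, while the log2 fold changes stayed at -0.97 and -0.89 for Elovl4 and at -0.92 and -0.83 for Elovl7. Both genes fell beside the neuron and oligodendrocyte markers, whose part in this was not tested.

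Elovl6 was at 37.1, 65.3 and 64.9 CPM in A_Pos and at 92.7, 103 and 107 CPM in A_Neg, and the groups did not overlap. The fitted log2 fold change was -0.51 (SE 0.22), and its adjusted p of 0.0919 missed the threshold. With the mouse as a replicate block, which pairs the fractions of a brain, the value was -0.54 with an adjusted p of 0.00503. Elovl6 was called lower in 6 of 11 alternatives, among them DESeq2 (adjusted p = 0.0493), scaling by total reads (0.018), the filter of 100 reads (0.0467) and all 29 libraries in one fit (0.000626). Elovl1 was at 16.2, 16.5 and 18.5 CPM in A_Pos and at 13.9, 24.0 and 21.3 CPM in A_Neg, with overlap between the groups and a fitted log2 fold change of 0.13 (SE 0.22, adjusted p = 0.632). In A_Pos, mouse 290 was the lowest of the 3 mice for all 10 members, and its astrocyte marker sum was also the lowest, at 15753 CPM against 21996 and 23342. Across 11 alternatives, including one without that mouse, the 6 higher members kept an adjusted p under 0.05 in each, with log2 fold changes of 2.81 to 3.25 for Fads2 and 1.59 to 1.97 for Elovl5.

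The fit scales libraries by TMM factors, which assume that most genes do not change, and CPM by total reads only. Scaled by total reads, the median log2 fold change of all genes in A_Pos against A_Neg moved from 0.04 to -0.31, so the fitted folds are larger than the ratios of CPM. The median over the 10 members was 1.97 with TMM and 1.63 with total reads. No member that passed the test changed direction between the scalings, while Elovl1 in A_Pos went from 0.13 to -0.22.

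**Figure D2:**
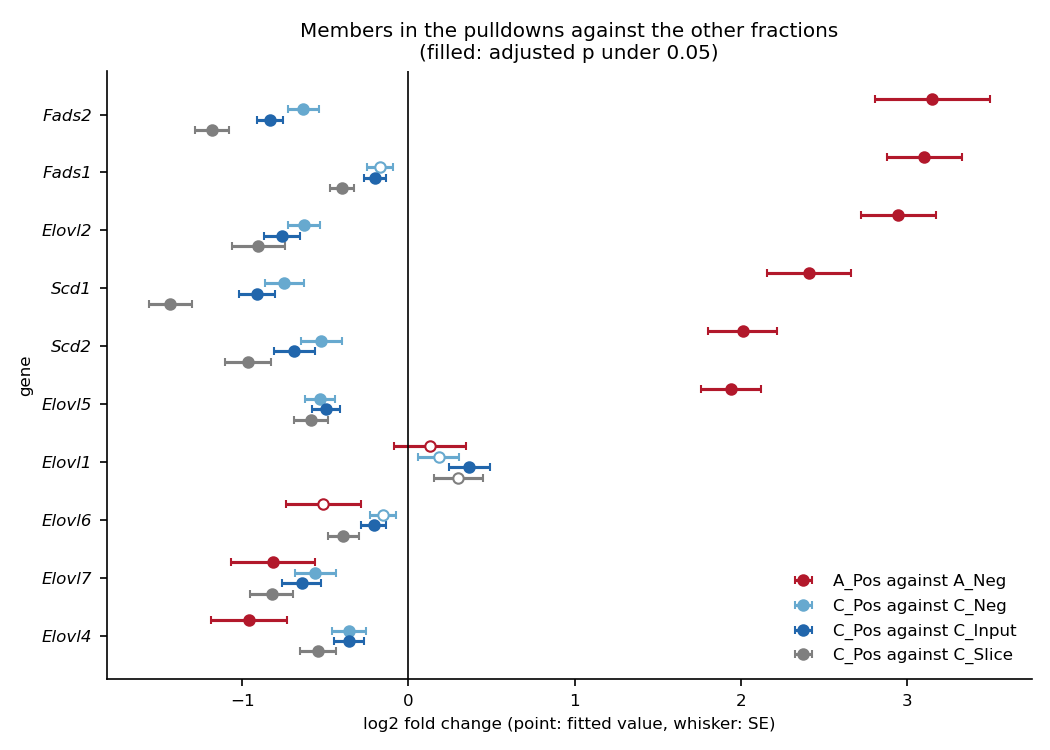
Log2 fold changes of the 10 genes (points, with SE as whiskers) in A_Pos against A_Neg and in C_Pos against C_Neg, C_Input and C_Slice, with filled points for an adjusted p under 0.05. In the plot 6 genes lie between 1.94 and 3.15 in the first comparison and below 0 in the other comparisons, whereas Elovl4 and Elovl7 lie below 0 in all of them.

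Microglia-bound RNA was compared with the homogenate it was pulled from. In C_Pos 9 members were lower than in C_Input, most of all Scd1, Fads2 and Elovl2, and the remaining one, Elovl1, was higher. The counts were 9 of 10 (90%) lower and 1 (10%) higher, against 25.6% lower and 23.3% higher of all 13838 genes tested. Within mice, all 9 were lower in 6 of 6 and Elovl1 was higher in 6 of 6. The median log2 fold change was -0.57 over the members and -0.0027 over all genes. All 9 were lower by less than 2-fold, and astrocyte and oligodendrocyte markers fell beside them (oligodendrocyte markers were at 1341 to 3535 CPM in C_Pos and 4529 to 5202 in C_Input), whose part in these differences was not tested.

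Scd1 was at 110 to 193 CPM in C_Pos (median 173) and at 284 to 343 CPM in C_Input (median 316), without overlap. It was at 0.532 times the C_Input level in the fit (log2 -0.91, SE 0.11, adjusted p = 1.46e-05). Fads2 was at 45.1 to 60.4 CPM in C_Pos (median 56.0) and 86.3 to 109 in C_Input (median 98.2), also apart, at 0.562 times C_Input (log2 -0.83, SE 0.08, adjusted p = 1.2e-06). Elovl2 was at 10.3 to 13.6 CPM in C_Pos (median 11.7) and 16.2 to 23.8 in C_Input (median 19.7), at 0.591 times C_Input (log2 -0.76, SE 0.11, adjusted p = 6.91e-05). Its lowest C_Input library lay above its highest C_Pos library. Scd2 was at 787 to 1477 CPM in C_Pos (median 1267) and 1820 to 2138 in C_Input (median 2014), at 0.622 times C_Input (log2 -0.69, SE 0.12, adjusted p = 0.000429). Elovl7 was at 12.6 to 22.2 CPM in C_Pos (median 20.5) and 26.9 to 33.9 in C_Input (median 30.9), at 0.641 times C_Input (log2 -0.64, SE 0.12, adjusted p = 0.000487). These 5 members and Elovl5 were the 6 that lay below C_Input without overlap, as did 15.3% of all genes tested.

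Elovl5 was at 56.2 to 90.5 CPM in C_Pos (median 73.0) and 96.7 to 111 in C_Input (median 106), a log2 fold change of -0.50 (SE 0.09, adjusted p = 0.000364). Elovl4 was at 40.0 to 59.5 CPM in C_Pos (median 46.9) and 55.9 to 65.9 in C_Input (median 62.2), with overlap between the groups and a log2 fold change of -0.36 (SE 0.09, adjusted p = 0.00491). Elovl6 and Fads1 moved least, by -0.21 (SE 0.07, adjusted p = 0.032) and -0.20 (SE 0.07, adjusted p = 0.0201). Both groups overlapped for these genes, with Elovl6 at 67.2 to 92.3 CPM in C_Pos and 89.7 to 96.7 in C_Input, and Fads1 at 208 to 273 and 272 to 296. Elovl6 kept its call in 7 of 14 alternatives and Fads1 in 9 of 14. Both lost it with all 29 libraries in one fit (adjusted p of 0.13 and 0.112) and with no filter on low values (0.0645 and 0.0513). Elovl6 also lost it with the filter of 100 reads (0.0607). Both lost it without mouse 192, 194 or 277, and Elovl6 also without mouse 155 (adjusted p of 0.0574 to 0.18 for Elovl6 and 0.0792 to 0.118 for Fads1).

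Elovl1 was at 15.9 to 26.5 CPM in C_Pos (median 20.6) and at 14.1 to 18.2 CPM in C_Input (median 16.2), with overlap between the groups. It was higher in C_Pos by 1.29-fold (log2 0.37, SE 0.12, adjusted p = 0.0235). Mouse 194 had the largest within-mouse ratio, 1.82 against a median of 1.20, and without it the log2 fold change was 0.28 with an adjusted p of 0.0682. The C_Pos library of mouse 194 also held the most microglial marker RNA (6893 CPM, against 2907 to 4521 in the other mice) the most RNA of peripheral macrophage and monocyte markers (128 CPM, against 43.5 to 60.6, and 7.33 to 11.3 in C_Input) and the least oligodendrocyte marker RNA (1341 CPM, against 2860 to 3535). The part of these markers in the Elovl1 value was not tested. In C_Pos it was the lowest of 6 for 7 of the 10 members and the highest for 1, Elovl1.

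**Figure D3:**
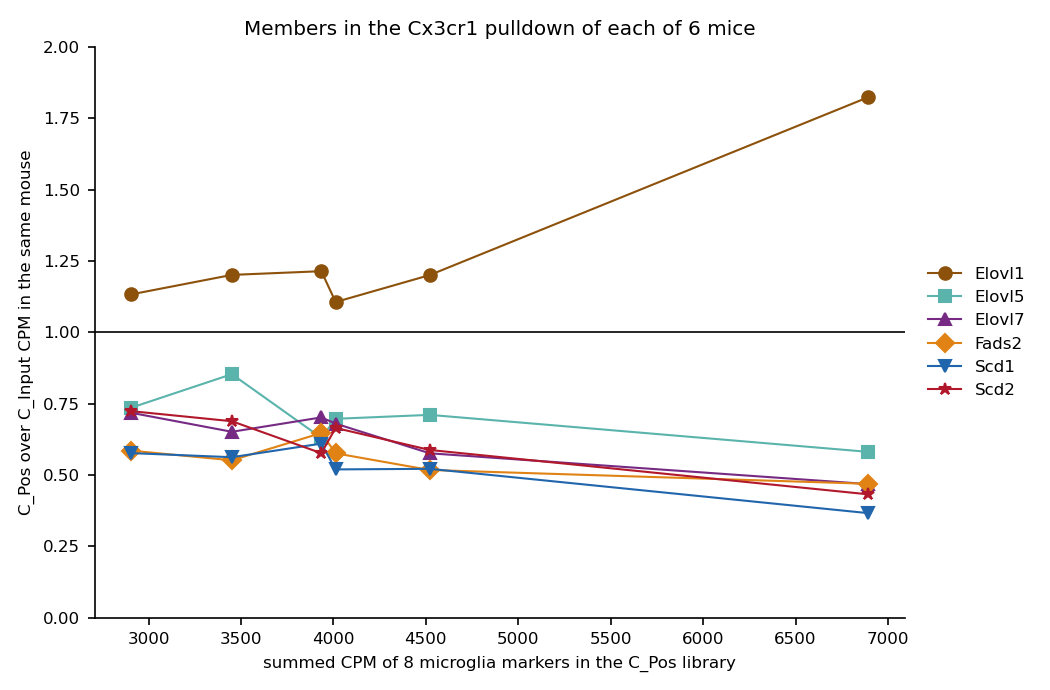
For each of the 6 Cx3cr1-NuTRAP mice, the ratio of C_Pos to C_Input CPM of 6 members (linear axis from 0) is plotted against the summed CPM of 8 microglia markers in that C_Pos library. Mouse 194, at 6893 CPM on the right, has the highest ratio of Elovl1 (1.82) and the lowest ratios of Scd1 (0.367) and Scd2 (0.432). The plotted members were not chosen by a fixed rule. Of those not plotted, Elovl4, Elovl6 and Fads1 had their lowest ratio in mouse 194. Elovl2 had its lowest in mouse 192 (0.450, against 0.544 in mouse 194).

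Against the other references of the same mice, the values share the C_Pos libraries with the comparison above and are given side by side with it. Against C_Neg, 7 of 10 were lower and 0 higher (0 at an unadjusted p under 0.05, and 0 by DESeq2), with 11.6% of all genes lower and 12.8% higher. Scd1 was at 224 to 312 CPM in C_Neg and its log2 fold change was -0.75 (SE 0.12, adjusted p = 0.000348), Fads2 was at -0.63 (SE 0.09, adjusted p = 0.000203) and Elovl2 at -0.63 (SE 0.10, adjusted p = 0.000288). Elovl7, Elovl5, Scd2 and Elovl4 were also lower, by log2 values of -0.56, -0.53, -0.52 and -0.36. Elovl6 (-0.15, adjusted p = 0.167), Fads1 (-0.17, adjusted p = 0.13) and Elovl1 (0.18, adjusted p = 0.304) did not pass the test, though without mouse 155 Fads1 was called lower (-0.22, adjusted p = 0.034). Elovl4 lost its call without mouse 192, 194 or 277, with adjusted p values of 0.0957, 0.105 and 0.0769, and Scd2 without mouse 192, at 0.0528. Oligodendrocyte markers were at 4759 to 5268 CPM in C_Neg against 1341 to 3535 in C_Pos and astrocyte markers at 3728 to 4659 against 2728 to 4280, and their part was not tested. Against C_Slice, 9 of 10 were lower and 0 higher (0 at an unadjusted p under 0.05, and 0 by DESeq2), with 24.3% of all genes lower and 27.5% higher. The log2 fold changes against C_Slice were -1.43 for Scd1 (SE 0.13, adjusted p = 2.84e-06), -1.18 for Fads2 (SE 0.10, adjusted p = 1.95e-06) and -0.97 for Scd2 (SE 0.14, adjusted p = 9.47e-05). For these 9 members no C_Pos library reached the lowest C_Slice library, which held for 15.8% of all genes tested, and Elovl1 was at 0.30 (SE 0.15, adjusted p = 0.102). Oligodendrocyte markers were at 1341 to 3535 CPM in C_Pos against 6348 to 8628 in C_Slice, astrocyte markers at 2728 to 4280 against 4755 to 5197 and endothelial markers at 61.6 to 140 against 111 to 223, and their part in these differences was not tested.

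Among the reference fractions, the unbound RNA differed little from the homogenate. None of the 10 members was called between C_Neg and C_Input by edgeR, where 1.41% of all genes were higher and 4.7% lower, and DESeq2 also called 0. At an unadjusted p under 0.05, 1 member was higher and 3 were lower. When the mouse was a replicate block, those 4 passed: Elovl1 (log2 0.21, adjusted p = 0.0493), Fads2 (-0.19, adjusted p = 0.00635), Scd1 (-0.15, adjusted p = 0.00368) and Scd2 (-0.14, adjusted p = 0.0016). In that fit 17.7% of all genes were higher and 19.5% lower, so these 1 and 3 of 10 members were near the share of all genes. The same 4 passed without mouse 155, where 12.8% of all genes were higher and 14.8% lower. The C_Neg library of that mouse was the lowest of 6 for 7 of the 10 members.

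The homogenate and the conventionally isolated tissue RNA did differ. In all, 5 members were lower in C_Input than in C_Slice and 0 higher (0 at an unadjusted p under 0.05, and 0 by DESeq2), with 14.6% of all genes lower and 15.7% higher. Scd1 was at 513, 483, 475, 366 and 430 CPM in C_Slice of mice 192, 194, 209, 210 and 277, all above the C_Input range of 284 to 343 CPM. Its log2 fold change was -0.54 (SE 0.08, adjusted p = 0.000368), and Fads2 (-0.37, SE 0.09, adjusted p = 0.00582), Scd2 (-0.30, SE 0.06, adjusted p = 0.0026), Fads1 (-0.22, SE 0.05, adjusted p = 0.0035) and Elovl6 (-0.20, SE 0.06, adjusted p = 0.0247) followed. With all 29 libraries in one fit, only Scd1 of the 5 kept its call (9.43% of all genes were then lower), with adjusted p of 0.113 for Elovl6, 0.0517 for Fads1, 0.0543 for Fads2 and 0.05 for Scd2, which lay just above the threshold. With the mouse as a replicate block 3 of the 5 were called (9.86% of all genes were lower), since Elovl6 had an adjusted p of 0.0812 and Fads2 of 0.0507. Elovl6 also lost its call without mouse 192, 194 or 209 (adjusted p of 0.118, 0.089 and 0.0758) and with no filter on low values (0.0838). Oligodendrocyte markers were at 6348 to 8628 CPM in C_Slice against 4529 to 5202 in C_Input, astrocyte markers at 4755 to 5197 against 4395 to 4757, and endothelial markers at 111 to 223 against 71.4 to 86.0. Ependymal markers were also higher in every C_Slice library than in any C_Input library, whereas neuron markers were at 6228 to 7510 against 7543 to 7897. The part of these markers in the differences was not tested. The C_Slice library of mouse 210, which had the fewest reads of all, was the highest of the 5 for Elovl2 (33.6 CPM, others 18.2 to 25.3) and Elovl4 (86.7 CPM, others 64.1 to 68.3), and the lowest for Fads2, Scd1, Scd2 and Elovl1.

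Bound RNA of the 2 lines was compared directly, in different mice. The paper collected Aldh1l1-NuTRAP brains for flow cytometry and imaging a week after tamoxifen, but delayed collection of Cx3cr1-NuTRAP brains to some weeks after it. Such a difference in time, and the Cre driver, cannot be told apart from the cell type in this comparison. Elovl2, Fads2, Fads1, Scd1, Scd2 and Elovl5 were higher in A_Pos than in C_Pos and Elovl4 was lower, so 6 of 10 were higher and 1 lower, against 30.6% and 33.1% of all genes. Elovl2 differed by 11.0-fold (log2 3.47, SE 0.12, adjusted p = 8.77e-09), Fads2 by 11.0-fold (log2 3.47, SE 0.21, adjusted p = 2.07e-07) and Fads1 by 7.95-fold (log2 2.99, SE 0.15, adjusted p = 3.92e-08). Scd1 differed by 6.95-fold, Scd2 by 5.05-fold and Elovl5 by 4.54-fold, and all 6 were higher in A_Pos without overlap, as were 18.4% of all genes tested. By CPM, Elovl4 (21.6 to 30.6 against 40.0 to 59.5) and Elovl6 (37.1 to 65.3 against 67.2 to 92.3) lay below C_Pos without overlap, as did 42% of all genes. Elovl4 was at 0.707 times its C_Pos level (log2 -0.50, SE 0.15, adjusted p = 0.0128), a call that was lost without mouse 210 (adjusted p = 0.0512). Elovl6 (log2 -0.20, SE 0.17), Elovl7 (-0.32, SE 0.21) and Elovl1 (0.04, SE 0.18) did not pass the test. Scaled by total reads, the median of all genes moved from -0.08 to -0.39 here, and Elovl6 and Elovl7 were then called lower. Neuron markers were at 1616 to 2165 CPM in A_Pos against 5455 to 8415 in C_Pos, oligodendrocyte markers at 1159 to 1351 against 1341 to 3535 and choroid plexus markers at 2817 to 3337 against 208 to 1016, and their part in these differences was not tested.

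The ratio of bound to unbound RNA was also compared between the lines in one fit, as the difference of A_Pos against A_Neg and C_Pos against C_Neg. Cell type, Cre driver and time since tamoxifen cannot be told apart here either. Of the members, 6 had a higher ratio in Aldh1l1-NuTRAP mice and 1 a lower ratio, against 25.5% and 29.9% of all 13983 genes. The difference was largest for Fads2 (log2 3.74, SE 0.29, adjusted p = 4.26e-09), followed by Elovl2 (3.54, SE 0.20, adjusted p = 7.73e-11), Fads1 (3.23, SE 0.19, adjusted p = 1.42e-10) and Scd1 (3.11, SE 0.25, adjusted p = 9.68e-09). Scd2 (2.49, SE 0.23, adjusted p = 5.6e-08) and Elovl5 (2.43, SE 0.17, adjusted p = 1.66e-09) came next. For Elovl4 the difference was -0.64 (SE 0.22, adjusted p = 0.0176), and for Elovl6 (-0.40, SE 0.19, adjusted p = 0.0823), Elovl7 (-0.30, SE 0.25, adjusted p = 0.322) and Elovl1 (-0.10, SE 0.24, adjusted p = 0.736) it did not pass. The Elovl4 call was lost without mouse 210, 293 or 294 (adjusted p of 0.0525 to 0.0596) and with no filter on low values (0.0509). Scaled by total reads, the median of all genes moved from -0.11 to -0.38 in this fit, and Elovl6 was then called lower.

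The make-up of elongase RNA differed between the groups, which is given as a description. Of the summed CPM per kb of the 6 elongases, Elovl5 made up 58.7% ± 0.737 and Elovl2 20.7% ± 1.23 in A_Pos (SD, n = 3), against 31.0% ± 0.916 and 5.60% ± 2.22 in A_Neg. Elovl4 was at 6.84% ± 0.248 and Elovl6 at 6.56% ± 0.979 in A_Pos, against 26.6% ± 3.36 and 19.4% ± 1.54 in A_Neg. Elovl1 had a share of 11.9% ± 3.34 in C_Pos against 7.11% ± 0.703 in C_Input (SD, n = 6), and Elovl5 one of 32.4% ± 2.16 against 35.8% ± 1.65. Reads of Elovl5 per read of Elovl6 were 4.50 to 5.87 in A_Pos, 0.828 to 0.926 in A_Neg and 0.837 to 0.996 in C_Pos. Reads of Scd2 per read of Scd1 were 5.22 to 5.88 in A_Pos against 6.82 to 7.56 in A_Neg, and 6.63 to 7.96 in C_Pos against 6.08 to 7.01 in C_Input, while the 5.05 to 5.89 of C_Slice covered the A_Pos range. Reads of Fads1 per read of Fads2 were 4.34 to 4.65 in C_Pos, above the 2.70 to 3.16 of C_Input, the 2.96 to 3.59 of C_Neg and the 2.43 to 3.51 of C_Slice, whereas those of A_Pos ran from 2.97 to 4.34 and nearly reached C_Pos.

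**Figure D4:**
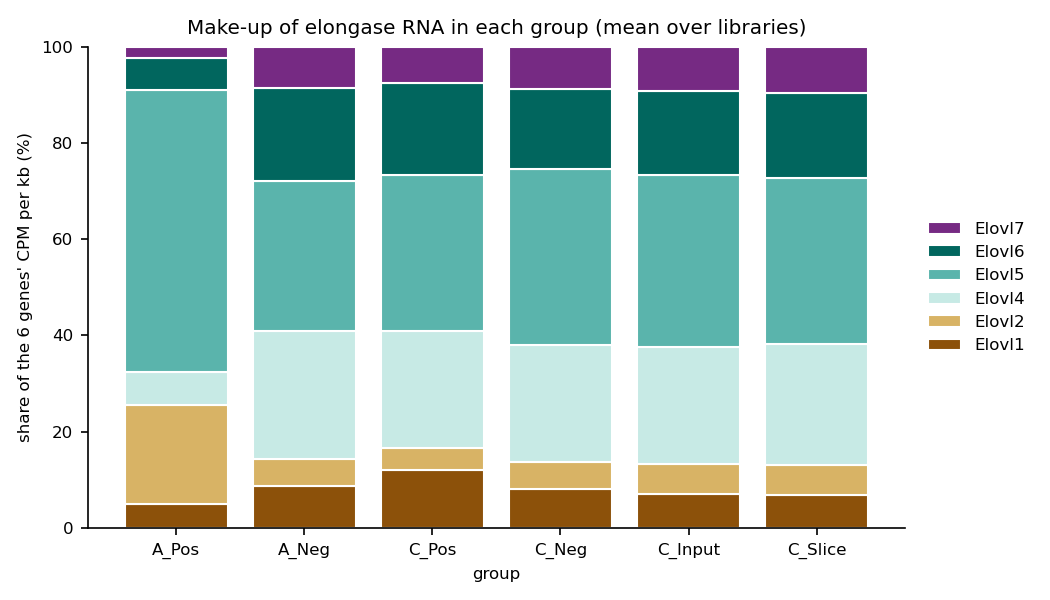
Stacked bars give the mean share (%) of each of the 6 elongases in their summed CPM per kb, for each group from A_Pos (n = 3) to C_Slice (n = 5). Elovl5 and Elovl2 make up 58.7% and 20.7% of the A_Pos bar, and the other 5 bars are alike in that Elovl2 is at 4.66% to 6.22%.

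A list of 41 other genes of the pathway was counted in the same fits, and 37 of them passed the filter in the comparisons with a positive fraction (Elovl3, Scd4, Tecrl and Cyb5r2 did not). In A_Pos against A_Neg, 26 of the 37 were higher and 1, the cytochrome b5 reductase Cyb5r4, was lower, which is 70.3% and 2.7% of them against 26.8% and 24.8% of all genes tested, and the median log2 fold change was 1.13 against 0.04 over all genes. Among the partners of the elongation cycle, 5 of 6 were higher, with the ketoacyl reductase gene Hsd17b12 at 2.54-fold and the dehydratase genes Ptplb (Hacd2) at 4.49-fold and Ptplad2 (Hacd4) at 2.31-fold. Of the electron donors of the desaturases, 3 of 5 were higher: Cyb5 by 4.86-fold, Cyb5b by 2.35-fold and Cyb5r3 by 2.70-fold. Genes that supply palmitate and malonyl-CoA were higher in 4 of 6 cases, namely fatty acid synthase Fasn (2.19-fold), the acetyl-CoA synthetase Acss2 (3.07-fold), the acetyl-CoA carboxylase Acacb (3.02-fold) and its regulator Mid1ip1 (6.87-fold), while Acly (log2 0.10, adjusted p = 0.695) and Acaca (0.61, adjusted p = 0.108) did not pass.

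Of 11 regulators of lipid synthesis, 9 were higher in A_Pos. They included the sterol-responsive factor Srebf1 (5.36-fold, adjusted p = 0.000127), its retention factor Insig1 (3.65-fold), the liver X receptor gene Nr1h3 (3.49-fold) and the fatty acid receptor Ppara (7.98-fold, adjusted p = 0.000266). Of the peroxisomal steps, which shorten the longest polyunsaturated chains to docosahexaenoic acid, 5 of 6 genes were higher, among them Hsd17b4 (3.30-fold), Scp2 (5.09-fold), Acaa1a (2.24-fold) and the transporter Abcd2 (2.68-fold). The other family members Fads3, Fads6 and Scd3 did not pass, with log2 fold changes of 0.09, 0.09 and -0.63. In C_Pos against C_Input, 11 of the 37 (29.7%) were higher and 16 (43.2%) lower, against 23.3% and 25.6% of all genes, with a median of -0.12. Only 2 passed a 2-fold change there, both higher: the carbohydrate-responsive factor Mlxipl by 5.33-fold (log2 2.41, SE 0.29, adjusted p = 1.79e-05) and Ptplad2 by 2.21-fold (log2 1.14, SE 0.27, adjusted p = 0.00329). Mlxipl had a log2 fold change of -0.18 (adjusted p = 0.639) in A_Pos against A_Neg, whereas Srebf1 (-0.41), Fasn (-0.58) and Ppara (-0.63) were lower in C_Pos with adjusted p of 0.000767, 5.17e-05 and 0.0022.

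**Figure D5:**
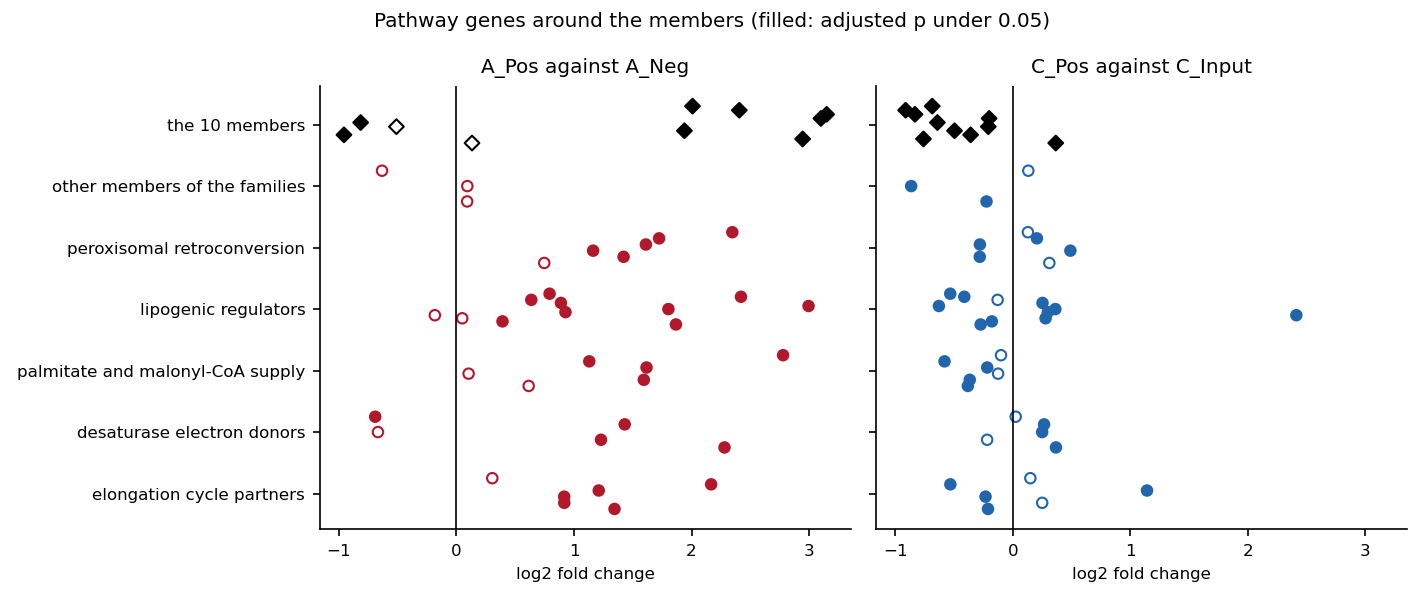
Log2 fold changes of the tested pathway genes (circles, by list) and of the 10 members (diamonds) in A_Pos against A_Neg (left) and C_Pos against C_Input (right), filled for an adjusted p under 0.05. On the left 26 of 37 pathway genes lie to the right of 0 as filled circles and 1 to the left, and on the right 11 and 16.

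Over the 29 libraries, log2 CPM of Elovl2, Elovl5, Fads1, Fads2, Scd1 and Scd2 had Pearson's r of 0.848 to 0.987 in their 15 pairs. Elovl4, Elovl6 and Elovl7 had r of 0.888 to 0.904 in 3 pairs, and r between these sets was -0.652 to -0.0609. The sets were formed after the values were seen, and the libraries share mice. Without the 3 A_Pos libraries, over 26 libraries, r was 0.514 to 0.977 within the first set, 0.763 to 0.795 within the second and 0.559 to 0.921 between them. Over all 29 libraries Elovl1 followed neither set, with r of -0.366 to -0.0276, and its r without A_Pos was not computed.

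Among 14108 genes, those whose log2 CPM was most like a member's over the 29 libraries were named by a fixed rule of 3 per member, as a description. For Elovl2 they were Rftn2, Lix1l and Id4 (r of 0.968 to 0.970), and for Elovl5 the gap junction gene Gja1, the serine synthesis gene Psat1 and Ankrd40 (0.978 to 0.985). For Fads1 they were Abhd4, Sfxn5 and Acss1 (0.991 to 0.993), and for Fads2 Hus1, the potassium channel gene Kcnj10 and the acyl-CoA synthetase gene Acsl3 (0.986 to 0.989). Scd1 was closest to Scd2 (0.987), then to the bicarbonate transporter gene Slc4a4 and Mboat2 (0.985 and 0.983), and Scd2 to Scd1, Paqr8 and Tmem47. Elovl4 was closest to Slc41a2, Dync1li2 and 1700025G04Rik (0.947 to 0.955), Elovl6 to Hdgfrp3, Irgq and Shroom2 (0.942 to 0.951), and Elovl7 to March6, Cpeb2 and Serinc1 (0.949 to 0.957). Elovl1 had no gene that near, with Fbxw5 at 0.751 and Dgat1 and Hexdc at 0.691 and 0.686.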

How the data were processed

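RNA of 29 libraries from 9 mice was analysed and the column labels gave fraction and animal, with 0 columns left over. The authors trimmed strand-specific paired-end reads, aligned them to mm10 and counted them on RefSeq genes in Strand NGS, and deposited expected counts per gene without normalization, of which 82.38% of the nonzero values were not whole. The authors also deposited log2 values normalized with DESeq, which were not used here. Counts were rounded, genes with more than 20 reads in every library of at least one group compared were kept, as in the study, and groups were compared with edgeR 4.0.16 (R 4.3.3, TMM, robust quasi-likelihood test, two-sided) across all genes kept, with Benjamini-Hochberg adjustment over all of them and a threshold of 0.05. The SE of a log2 fold change was derived from the test's F statistic. Only the groups compared entered a fit, without a block.

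The members and gene lists were chosen with earlier results of these data known. All 10 members are described, and other pathway genes were given values where they passed a 2-fold change and the test in A_Pos against A_Neg or C_Pos against C_Input. Some pathway genes below that, and Mlxipl and others in the second of a pair of comparisons, were named after their values were seen. The values of 1 listed gene are not reported here. Likeness was Pearson's r of log2 CPM with a prior count of 2. Fractions with the same animal number come from one mouse. Residuals of a mouse's fractions correlated above 0.1 in 3 of 3 mice for A_Pos with A_Neg (0.442 to 0.648), in 3 of 6 for C_Pos with C_Input (-0.227 to 0.210), in 5 of 6 for C_Neg with C_Input (0.085 to 0.602) and in 0 of 5 for C_Input with C_Slice. Alternatives were DESeq2 1.42.0 as the test, its size factors or total reads as scaling, no filter, a filter of 100 reads, unrounded counts, all 29 libraries in one fit, the mouse as a block, and leaving out each mouse. Levels, sequences and plots were made in Python 3.11.15 (numpy 2.4.6, pandas 2.3.3) with matplotlib 3.10.9. Libraries held 4260949 to 26857866 reads, so counting error is largest for the low members in C_Slice of mouse 210, where 63.1 reads fell on Elovl1 and 143 on Elovl2. In A_Pos of mouse 290, 104 reads fell on Elovl7.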

Additional observations from a re-analysis of the deposited data

Results flagged for a closer look

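Of 44 sets of values (a member, or the total reads, in a group of 5 or 6 libraries) 4 had 1 library far from the rest by Dixon's criterion, which chance alone meets in about 1 of 20. Elovl4 was at 86.7 CPM in C_Slice of mouse 210, where the next library was at 68.3. Elovl7 was at 12.6 CPM in C_Pos of mouse 194, below the next at 19.6. Fads1 was at 234 CPM and Fads2 at 65.1 CPM in C_Neg of mouse 155, where the next libraries were at 277 and 84.8.

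The ratio of bound to unbound RNA differed between the lines for 7 members, 6 higher and 1 lower, by the interaction test of edgeR, against 25.5% and 29.9% of all genes. The log2 difference (Aldh1l1-NuTRAP minus Cx3cr1-NuTRAP) was 3.74 for Fads2, 3.54 for Elovl2, 3.23 for Fads1, 3.11 for Scd1, 2.49 for Scd2, 2.43 for Elovl5 and -0.64 for Elovl4, whose call was lost with no filter or without mouse 210, 293 or 294 (adjusted p of 0.0509 to 0.0596).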

How the results depend on the processing

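No member that passed a test changed sign under any alternative. Among those that did not pass, Elovl1 changed sign in A_Pos against A_Neg (log2 -0.22 to 0.31), A_Pos against C_Pos (-0.26 to 0.14) and the interaction (-0.37 to 0.084), Elovl6 in A_Pos against C_Pos (-0.51 to 0.0039), and Elovl4 (-0.0039 to 0.053) and Fads1 (-0.028 to 0.018) in C_Neg against C_Input. The 6 members higher in A_Pos against A_Neg, in A_Pos against C_Pos and in the interaction stayed past the threshold in each alternative, and C_Pos against C_Slice changed no call. Leaving out single mice moved the number of members called: the lower count in A_Pos against A_Neg ran from 0 (without mouse 293 or 294) to 3 (without 290), the higher count in C_Pos against C_Input from 0 (without 194) to 1, its lower count from 7 (without 192, 194 or 277) to 9, the lower count in C_Pos against C_Neg from 5 (without 192) to 8 (without 155), and C_Neg against C_Input from 0 to 1 higher and from 0 to 3 lower (without 155). Lower calls among all genes moved as well. In A_Pos against A_Neg they were 1685 of 13363 without mouse 293, 1600 of 13381 without 294 and 4844 of 14115 without 290. In C_Pos against C_Input they were 2603 of 13879 without 192, 2965 of 13942 without 194 and 2900 of 13889 without 277. In C_Pos against C_Neg they were 570 of 13839 without 192 and 2183 of 13904 without 155. Higher calls in C_Pos against C_Input were 3193 of 13942 without 194. The lower count of members in A_Pos against C_Pos, and in the interaction, ran from 0 to 1 (0 without mouse 210 in both, and without 293 or 294 in the interaction). With the mouse as a replicate block, C_Neg against C_Input gave 1 higher and 3 lower and C_Input against C_Slice 3 lower, Elovl6 was called lower in A_Pos, and no other call changed. With all 29 libraries in one fit, C_Input against C_Slice gave 1 lower and C_Pos against C_Input 7, as the latter did with no filter. Without mouse 192, 194 or 209, Elovl6 lost its call in C_Input against C_Slice, and with the filter of 100 reads it lost its call in C_Pos against C_Input. Scaled by total reads, 3 members were lower in A_Pos against C_Pos and 2 in the interaction. All genes were shifted down in those fits, with median log2 fold changes of -0.39 and -0.38. With no filter 0 members were lower in the interaction. The median of all genes moved with the scaling by total reads, and the causes of the other changes were not tested. No paired analysis was possible for A_Pos against C_Pos because its groups come from different mice. Of 350 alternative values of the levels, 346 moved by less than the SD, and the 4 others were TMM-scaled levels in A_Pos.

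The counts over all genes moved too. In C_Neg against C_Input 194 genes were higher and 646 lower, against 766 and 1290 by DESeq2, 53 and 228 with no filter, 0 and 59 with all 29 libraries in one fit, 2431 and 2684 with the mouse as a block, 1774 and 2041 without mouse 155, and at most 3 and 0 without any other mouse. In A_Pos against A_Neg, 3569 and 3299 became 1977 and 1685 without mouse 293 and 1987 and 1600 without 294. In C_Input against C_Slice, 2130 and 1993 became 1167 and 1283 with all libraries, and 1322 to 1409 and 1204 to 1265 without mouse 192, 194 or 209. In C_Pos against C_Neg, 1759 and 1593 became 1177 and 570 without mouse 192, 1151 and 868 without 194 and 1372 and 866 without 277, and in C_Pos against C_Slice 3705 and 3279 became 2322 and 2696 without 192.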
